A study of Mus musculus with 8 samples.

Results

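The genes described here move cholesterol out of macrophages or bring lipid into them. They are Abca1, Abcg1, Nr1h3, Lpl, Pltp, Srebf2, Sorl1 and Scarb1, 8 of the 24516 genes in the deposited count table, and their rows were taken by symbol. Each was compared between macrophages that descend from the endocardium and other macrophages from hearts of the same age and genotype.

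The study sequenced RNA of cardiac macrophages in 8 libraries, 4 of endocardially derived tissue macrophages (EcTM) and 4 of macrophages without that label of origin (non-EcTM). Both groups were sorted from the heart at postnatal day 28, on a C57BL/6 background. All 8 libraries share 1 genotype, Nfatc1Cre/+; Rosa26Tomato reporter/+, so the non-EcTM also come from mice with Cre in 1 copy of Nfatc1. Nfatc1 is a transcription factor of the endocardium, the lining of the heart chambers, and Cre made there switches on a lasting red reporter. The origin is therefore read from the reporter, and a cell in which Cre never acted counts as non-EcTM. Each EcTM library has a non-EcTM library with the same number in its title, which gives the 4 pairs E591 with N591, E592 with N592, E604 with N604 and E606 with N606. A pair is named here by its EcTM library. What a shared number stands for, such as 1 animal or 1 litter, is not in the labels, and p-values measure the spread between these libraries.

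Macrophages take up cholesterol with dying cells and lipoproteins and cannot break down its ring system, so they export the excess. The liver X receptors, LXRα (Nr1h3) and LXRβ (Nr1h2), sense oxidised sterols and switch on the exporters Abca1 and Abcg1. SREBP2 (Srebf2) acts in the opposite state, when membrane cholesterol is low, and switches on synthesis and uptake. Lipoprotein lipase, sorting receptors and scavenger receptors bring lipid in.

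Total counts were 2152425 to 2937464 a library. A floor of 3 counts, taken as what sampling could hide behind a listed 0, corresponds to 0.99 to 1.43 CPM, counts scaled by the size of the library. The floor covers sampling only, so it does not bound the level of genes with several transcripts, described below. Of 15 macrophage markers, 14 had enough counts to be tested and 1 was listed at 0 in all 8 libraries. The 15 summed to 33490 to 34790 CPM in EcTM and 30878 to 34320 in non-EcTM. Csf1r, the receptor for the macrophage growth factor, stood at 5967 ± 218 CPM in EcTM (SD, n = 4) and 5582 ± 214 in non-EcTM (SD, n = 4). Endothelial markers were also present and were uneven. Their 11 genes summed to 337 CPM in E591, 54.5 in E592, 32.5 in E604 and 239 in E606. In N591 they summed to 895 CPM, in N592 to 87.3, in N604 to 148 and in N606 to 117. N591 thus stood apart from the other 7 libraries. Fibroblast marker sums were also uneven, at 131 CPM in E591 and 203 in N591, against 25.3 to 42.5 in the other libraries. Cardiomyocyte marker sums were 90.3 to 193 CPM and mural cell sums 71.9 to 264 over the 8 libraries. Of 7 fat cell markers 5, among them Adipoq and Lep, were at 0 in all 8 libraries. The 7 summed to 0 to 4.47 CPM in EcTM and 0.87 to 6.27 in non-EcTM. E592 and N592, and no other library, carried many counts of the Y-linked Ddx3y (260 and 307, against 1 to 7), so the sex of the mice goes with the pair. In whole-population RNA, fewer cells that express a gene and less RNA per cell cannot be told apart.

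Lipid genes with several transcripts had low counts in the deposited table. Of 117 genes in 8 lipid lists, 3 of the 57 with 1 curated RefSeq transcript were at 0 in all libraries (5.26%), against 8 of 26 with 2 (30.8%) and 12 of 34 with at least 3 (35.3%). The median total count over 8 libraries was 960, 10 and 7.5 in these classes. Over all protein-coding genes the shares at 0 were closer, at 36.6%, 39.2% and 38.2%. Abca1, Abcg1, Lpl, Pltp and Srebf2 have 1 curated transcript, Sorl1 has 2, and Nr1h3 and Scarb1 have 3. A low count of the last 3 genes is therefore not read as low expression.

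Start regions of 3 of the genes are shown because they hold the DNA elements by which sterols act on the pathway, and because Sorl1 has the largest fitted difference between origins among the 6 members that could be tested. Of the 8 genes, 5 had an entry, with 7 starts, among the RefSeq promoters of GRCm38.p6, which run from 250 bases before a start to 50 after it. Capitals mark motif matches. Abca1 lies at chr4:53159846-53160145 on the minus strand, Srebf2 at chr15:82147019-82147318 on the plus strand and Sorl1 at chr9:42124248-42124547 on the minus strand.
Abca1: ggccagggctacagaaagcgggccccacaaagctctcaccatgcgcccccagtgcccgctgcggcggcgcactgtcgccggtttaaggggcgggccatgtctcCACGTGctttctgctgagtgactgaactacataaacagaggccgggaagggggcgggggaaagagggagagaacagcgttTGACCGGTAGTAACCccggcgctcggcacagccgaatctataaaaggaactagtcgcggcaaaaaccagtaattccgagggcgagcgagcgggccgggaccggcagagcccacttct
Srebf2: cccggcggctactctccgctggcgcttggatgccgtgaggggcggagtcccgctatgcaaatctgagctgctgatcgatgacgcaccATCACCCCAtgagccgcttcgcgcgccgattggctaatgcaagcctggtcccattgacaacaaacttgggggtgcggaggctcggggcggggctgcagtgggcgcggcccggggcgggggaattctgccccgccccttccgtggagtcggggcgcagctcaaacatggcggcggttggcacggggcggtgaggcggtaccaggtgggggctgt
Sorl1: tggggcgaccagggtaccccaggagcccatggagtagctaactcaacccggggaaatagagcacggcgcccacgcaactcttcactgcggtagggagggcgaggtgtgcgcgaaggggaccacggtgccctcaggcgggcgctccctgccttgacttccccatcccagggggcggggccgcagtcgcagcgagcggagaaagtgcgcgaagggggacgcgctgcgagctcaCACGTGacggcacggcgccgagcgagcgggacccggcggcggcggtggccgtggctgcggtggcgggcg
In Abca1, the capitals nearest the start are a direct repeat of the kind that LXR with its partner RXR binds. It lies 67 to 53 bases before the start and reads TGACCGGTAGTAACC here, which is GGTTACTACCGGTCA on the other strand. It was found as GGTNANNNNNGGTCA on either strand, which 68 of 32851 promoters of this length hold (0.207%). In Srebf2, the capitals are the core of a sterol regulatory element, ATCACCCCA, 163 to 155 bases before the start, found in 92 of these promoters (0.280%). Abca1 and Sorl1 each hold an E-box, CACGTG, at 147 to 142 and at 19 to 14 bases before the start. E-boxes are common, at 2349 of 32851 promoters (7.15%), and none of the searched motifs overlap in these 3 windows. The matches are descriptions of sequence, and no binding was measured.

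Of the 8 genes, 6 had enough counts to be tested. None differed between EcTM and non-EcTM at an adjusted p under 0.05 in the paired quasi-likelihood test of edgeR with Benjamini-Hochberg adjustment, a test that called 1 of 7667 genes (0.013%). At an unadjusted p under 0.05, 1 of the 6, Sorl1, was higher in EcTM, against 2.77% of all tested genes higher in EcTM at that level. The groups overlapped in each of the 6, against 2.7% of tested genes with groups that do not overlap. The median log2 fold change was 0.00 for the 6 genes and -0.01 for all 7667.

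**Figure D1:**
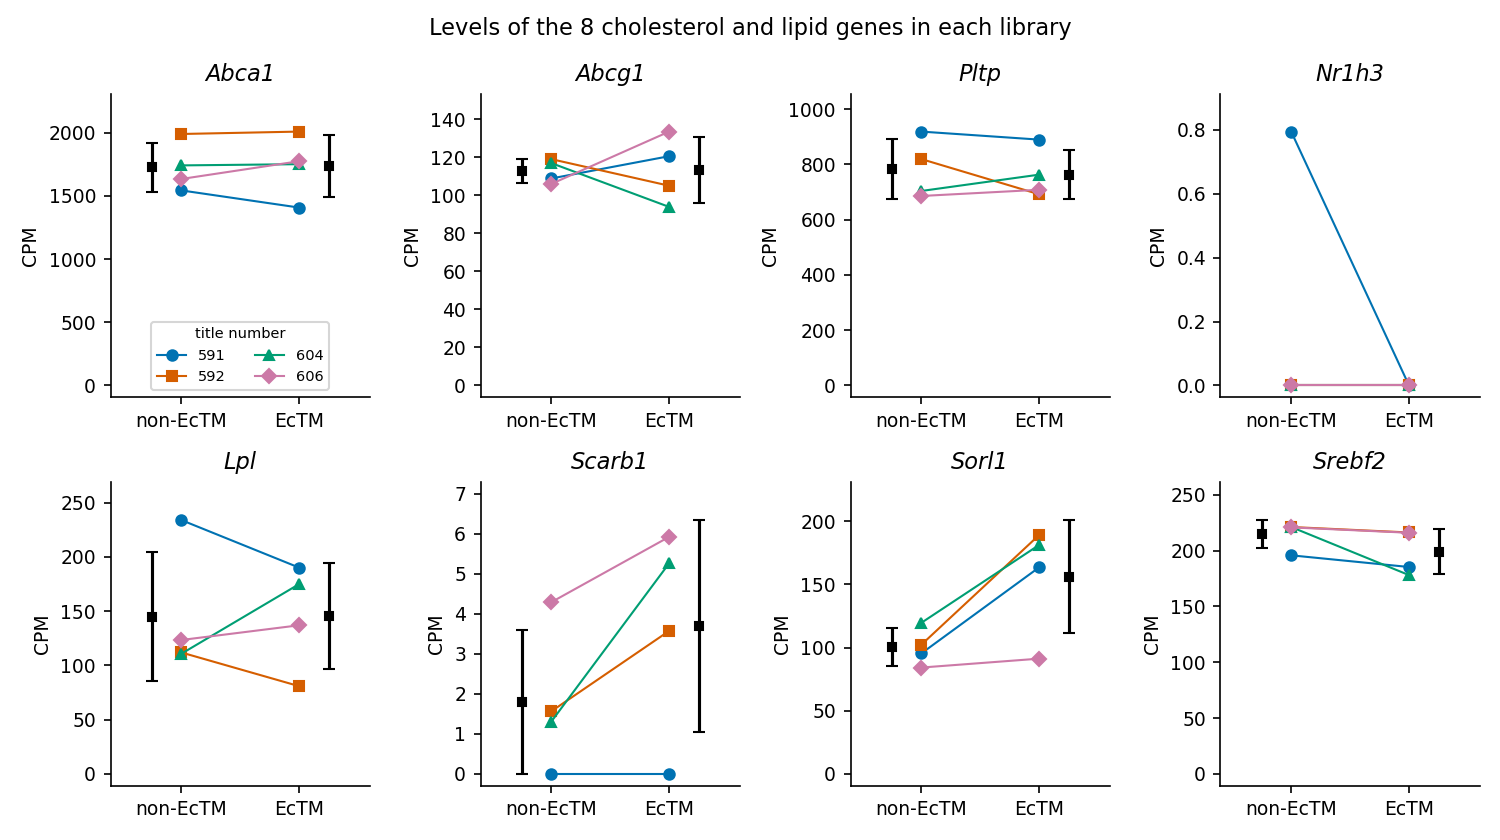
CPM of the 8 genes (vertical axis, from 0, a separate scale for each gene) in non-EcTM and EcTM. Lines join libraries with the same title number, and black squares with bars are the mean and SD of 4 libraries, left out for Nr1h3, which was listed at 0 in 7 of 8 libraries. Sorl1 is higher in EcTM in each of the 4 pairs, little in pair E606, while the lines of Abca1, Abcg1, Pltp and Lpl run both ways.

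Among the sensors, Nr1h3 (Entrez 22259, chromosome 2, 91184061 to 91202829) could not be followed. It had 2 counts in all, both in N591, and the other 7 libraries listed 0. The other liver X receptor gene, Nr1h2, and the LXR target Srebf1 were listed at 0 in all 8 libraries, and each has several curated transcripts. The levels of the receptors themselves could therefore not be read here, and those of the targets Abca1 and Abcg1 could.

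Srebf2 (Entrez 20788, chromosome 15, 82147269 to 82205379) encodes SREBP2, the transcription factor that acts when membrane cholesterol is low. It was at 185, 216, 178 and 216 CPM in E591, E592, E604 and E606. It was at 196, 221, 221 and 221 CPM in N591, N592, N604 and N606. EcTM were lower in 4 of 4 pairs, as were 6.89% of all tested genes, and 3 of the differences were under 0.1 on the log2 scale. The fitted log2 fold change was -0.11 ± 0.12 (SE), with a 95% interval of -0.36 to 0.13 and an adjusted p of 0.968 in edgeR. A fall of more than 0.36 on the log2 scale is outside that interval.

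The efflux genes showed no difference between the origins past the threshold, and the interval was narrowest for Abca1. Abca1 (Entrez 11303, chromosome 4, 53030789 to 53159988) encodes the transporter that loads cholesterol and phospholipid onto lipid-poor apolipoprotein A-I. It was at 1408, 2009, 1751 and 1775 CPM in E591, E592, E604 and E606. It was at 1544, 1990, 1742 and 1634 CPM in N591, N592, N604 and N606. Both groups had the pair E592 highest and the pair E591 lowest. The means were 1736 ± 248 CPM in EcTM (SD, n = 4) and 1727 ± 193 in non-EcTM (SD, n = 4). The log2 fold change was 0.0023 ± 0.06 (SE), with an adjusted p of 0.998 in edgeR, and the 95% interval on the fold scale was 0.92 to 1.09.

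Abcg1 (Entrez 11307, chromosome 17, 31057694 to 31117984) passes cholesterol on to mature high-density lipoprotein. It was at 121, 105, 93.9 and 133 CPM in the EcTM libraries, in the same order, and at 109, 119, 117 and 106 CPM in the non-EcTM libraries. EcTM were higher in 2 of 4 pairs, and the highest and the lowest values were both EcTM. Its log2 fold change was -0.00096 ± 0.16 (SE), with a 95% interval of 0.80 to 1.26 on the fold scale and an adjusted p of 0.999 in edgeR. That interval is wider than the one for Abca1.

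Pltp (Entrez 18830, chromosome 2, 164839518 to 164857708) encodes phospholipid transfer protein, which moves phospholipid between lipoproteins and enlarges high-density lipoprotein. It was at 890, 692, 763 and 708 CPM in EcTM and at 919, 820, 704 and 686 CPM in non-EcTM. EcTM were higher in pairs E604 and E606 and lower in E591 and E592. The log2 fold change was -0.03 ± 0.08 (SE), with a 95% interval of -0.19 to 0.13 and an adjusted p of 0.993 in edgeR. An exon of Pltp overlaps the gene Ctsa on the opposite strand by up to 311 bases. Whether the counting used strand is not given in the labels or headers, and Ctsa had 357 counts over the 8 libraries.

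Of the uptake genes, Lpl (Entrez 16956, chromosome 8, 68880555 to 68906932) encodes lipoprotein lipase, which frees fatty acids from circulating triglyceride. It was at 190, 80.9, 175 and 137 CPM in E591, E592, E604 and E606. It was at 234, 112, 111 and 123 CPM in N591, N592, N604 and N606. The pairs disagreed, with log2 ratios of -0.30, -0.46, 0.66 and 0.15 for E591, E592, E604 and E606. The log2 fold change of 0.01 ± 0.16 (SE), with a 95% interval of -0.32 to 0.34 and an adjusted p of 0.998 in edgeR, is an average over pairs that run both ways. In the unpaired edgeR fit the log2 fold change of Lpl was 0.0066 with N591 and 0.33 without it (adjusted p = 0.9996). Lpl was highest in N591, the library with the highest endothelial and fibroblast sums, and E604 had 175 CPM with the lowest endothelial sum. The part of other cells in the Lpl level was not tested.

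Sorl1 (Entrez 20660, chromosome 9, 41964709 to 42124297) had the largest fitted difference of the 6 tested members. It encodes SorLA, a sorting receptor of the VPS10 family that binds lipoproteins and lipoprotein lipase and carries cargo between the Golgi and endosomes. It had 343, 423, 413 and 231 counts, or 163, 189, 181 and 91.2 CPM, in E591, E592, E604 and E606. It had 240, 261, 274 and 255 counts, or 95.3, 102, 120 and 84.2 CPM, in N591, N592, N604 and N606. E591, E592 and E604 lay above all 4 non-EcTM libraries, and E606 lay below 3 of them. EcTM were higher in 4 of 4 pairs, as were 7.24% of all tested genes, with log2 ratios of 0.77, 0.88, 0.60 and 0.11.

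The fold was 1.52, with a 95% interval of 1.22 to 1.89 before adjustment over genes. Sorl1 ranked 13 of 7667 genes by p (7.47e-04), but its adjusted p in edgeR was 0.413, which does not pass. The paired fit of DESeq2 gave the same size, 0.60 ± 0.16 (SE) on the log2 scale, with an adjusted p of 0.0450, and placed it 16 among 17 called genes of 4325 (0.393%). limma-voom, which called 0.248% of genes, gave an adjusted p of 0.0543. With any 1 of the 4 pairs left out, neither edgeR nor DESeq2 called it. edgeR then gave log2 fold changes of 0.50 to 0.75 with adjusted p of 0.229 to 0.981. DESeq2 gave adjusted p of 0.534, 0.142 and 0.515 without the pairs E592, E604 and E606, and no adjusted p without E591. Without the pairing, the adjusted p in edgeR was 0.998.

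Endothelial marker sums moved with the pairs too. They were lower in EcTM in pairs E591, E592 and E604, and higher in EcTM in pair E606, the pair in which Sorl1 differed least. Of the 11 endothelial markers 5 had enough counts, and all 5 had lower fitted levels in EcTM, 3 of them at an unadjusted p under 0.05 and none at an adjusted p under 0.05 in the paired edgeR fit. Kdr, the endothelial receptor for VEGF, passed when edgeR was run with no filter on low counts, at -1.26 on the log2 scale (adjusted p = 0.0130). Its value was -0.26 unpaired and without N591 (adjusted p = 0.9996 in edgeR). The part of this in the Sorl1 difference was not tested. Sorl1 also overlaps an antisense transcript gene, Gm16214, by up to 93 exonic bases, and it has 2 curated transcripts, so a difference in transcript use cannot be told apart from one in level.

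Scarb1 (Entrez 20778, chromosome 5, 125277087 to 125341094) encodes the scavenger receptor that takes cholesteryl ester from high-density lipoprotein. It had 0, 8, 12 and 15 counts in E591, E592, E604 and E606 and 0, 4, 3 and 13 in N591, N592, N604 and N606. In CPM these are 0, 3.57, 5.26 and 5.92 against 0, 1.57, 1.31 and 4.29. Its 55 counts fell short of the filter. Fitted without a filter, the log2 fold change was 1.12 ± 1.55 (SE), an error larger than the difference, with an adjusted p of 0.992 in edgeR.

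**Figure D2:**
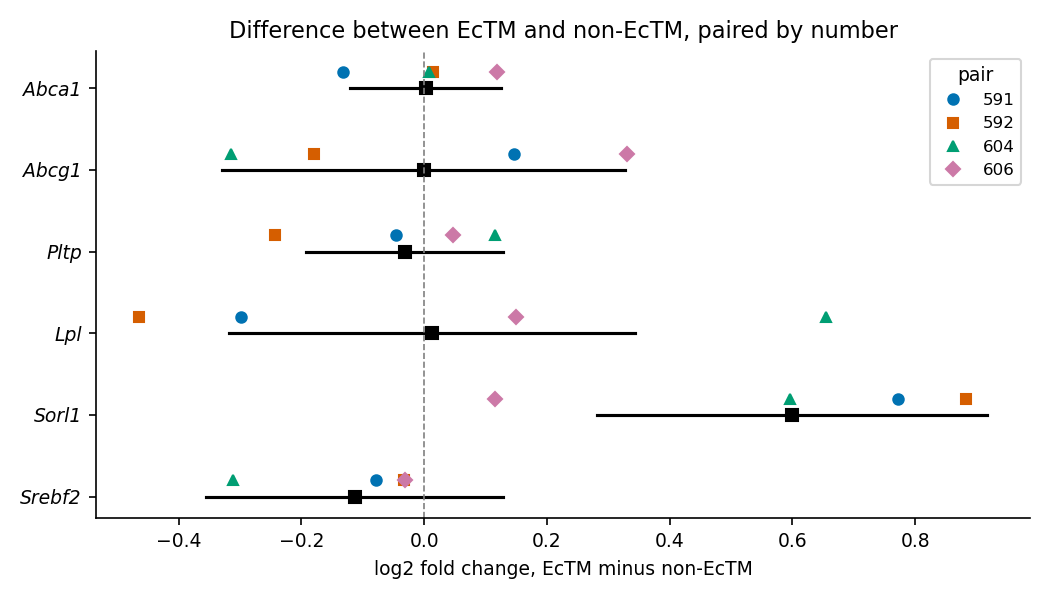
Log2 fold change of the 6 tested genes, EcTM minus non-EcTM (horizontal axis). Black squares and lines are the paired edgeR estimate and its 95% interval, and coloured points are the 4 pairs. Sorl1 has an interval of 0.28 to 0.92, while the other 5 intervals span 0.

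Levels can be compared between genes only per transcript length, and only for the 5 genes with 1 curated transcript. On that scale Pltp was highest, at 427 ± 51.3 CPM per kilobase (SD over 8 libraries), followed by Abca1 at 169, with a range of 137 to 196. Srebf2 came next at 40.7 ± 3.48, then Lpl at 35.3 ± 12.2 and Abcg1 at 19.4 ± 2.07. The ranges over 8 libraries of Pltp, Abca1 and Srebf2 do not overlap, but that of Lpl (19.7 to 56.8) overlaps those of Srebf2 (35.1 to 43.6) and Abcg1 (16.1 to 22.9). These macrophages thus carried more Abca1 than Abcg1 transcript per length in each library.

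**Figure D3:**
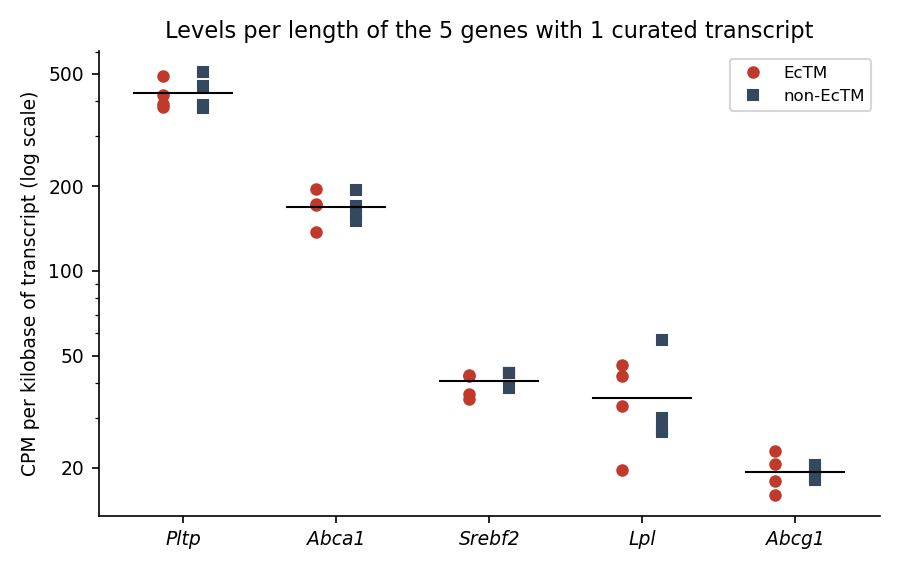
CPM per kilobase of transcript (log axis) for the 5 genes with 1 curated transcript, in 4 EcTM and 4 non-EcTM libraries, with a line at the mean of 8. Pltp (379 to 508) and Abca1 (137 to 196) stand above the other 3 genes, and Lpl has the widest spread.

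Abca1 and Lpl differed between the pairs, each pair being 2 libraries with 1 title number. With the group as a term, edgeR's test of the 4 title numbers called 233 of 7667 genes (3.04%), and 2 of the 6 members, Abca1 and Lpl. Abca1 averaged 1476, 2000, 1746 and 1705 CPM in the pairs E591, E592, E604 and E606, a fitted range of 0.44 on the log2 scale (1.35-fold, adjusted p = 0.0178 in edgeR). Lpl was at 212, 96.4, 143 and 130 CPM in the same order, a fitted range of 1.13 (2.20-fold, adjusted p = 0.0208 in edgeR). The pair E592 was thus highest for Abca1 and lowest for Lpl, and E591 the reverse.

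Of the variance of Abca1 log2 CPM over the 8 libraries, 92.4% lay between pairs, and for Lpl 77.7%. The share does not set the called genes apart, as it was 80.6% for Pltp, which edgeR did not call. It was 53.3% for Srebf2, 43.3% for Sorl1 and 21.1% for Abcg1. The calls of Abca1 and Lpl were lost when either of their 2 extreme pairs was left out. The range is the highest minus the lowest pair, so it shrinks by construction in those runs. Calls over all genes also fell, from 233 to 146 to 179, with a pair left out. Without E591 and N591 the range of Abca1 was 0.23 (adjusted p = 0.328 in edgeR) and that of Lpl 0.54 (adjusted p = 0.551). Without E592 and N592 they were 0.22 (adjusted p = 0.438 in edgeR) and 0.72 (adjusted p = 0.166). Without the pair E604, or without E606, both stayed past the threshold. Pltp had a range of 0.38, highest in E591 (904 CPM) and lowest in E606 (697 CPM), and an adjusted p of 0.207 in edgeR. DESeq2, which called 5.01% of genes between title numbers, gave Pltp an adjusted p of 0.0220, and limma-voom, which called 3.9%, gave 0.0372. The ranges of Srebf2, Abcg1 and Sorl1 were 0.20, 0.18 and 0.73, with adjusted p of 0.893, 0.977 and 0.236 in edgeR.

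Other measured differences go with the pairs. E592 and N592 are the only libraries with more than 7 counts of Ddx3y. E591 and N591 had the highest endothelial and fibroblast marker sums of their groups. Sex and cell mixture cannot be told apart from the pair with 4 pairs.

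**Figure D4:**
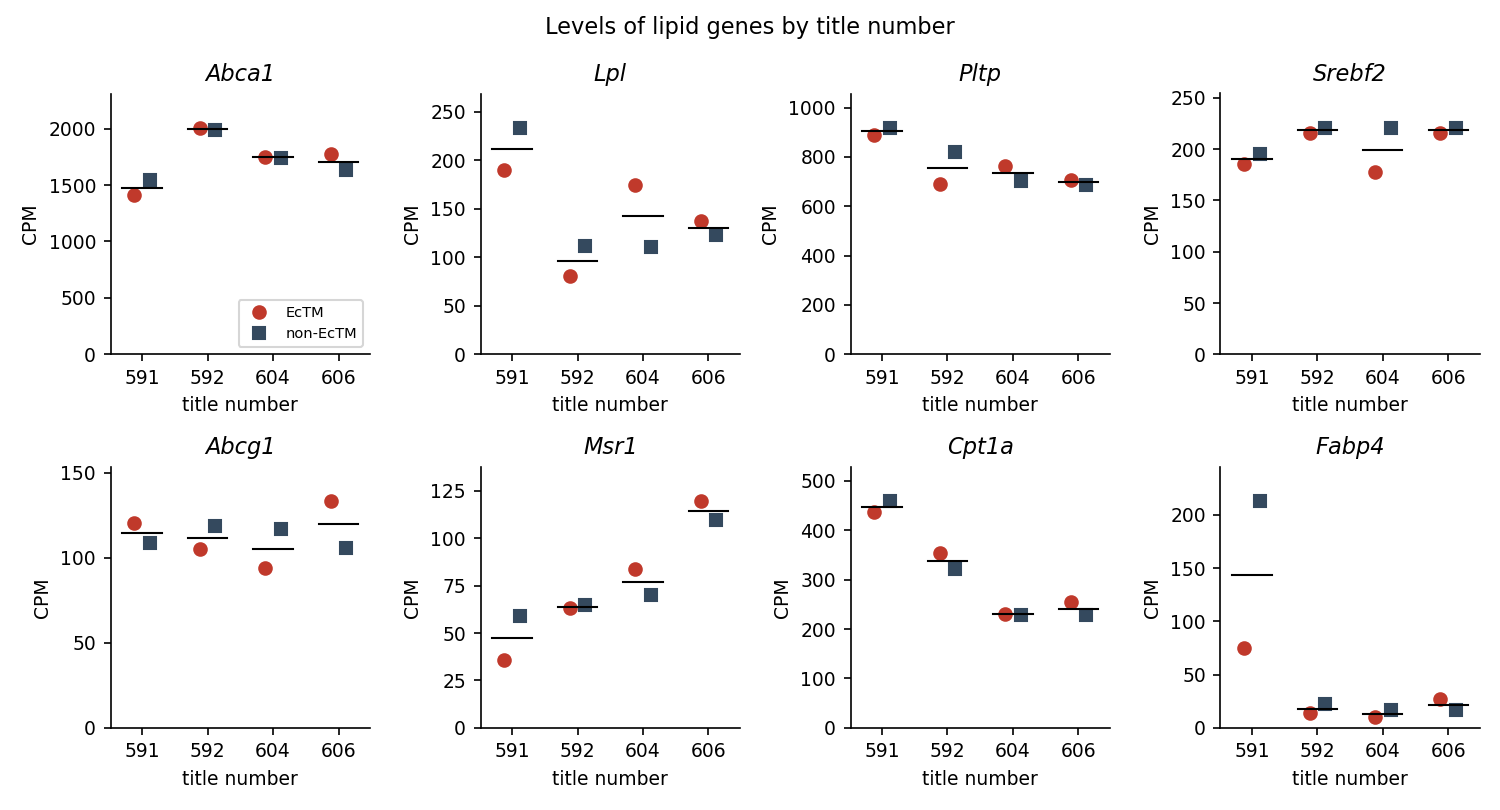
CPM (vertical axis, from 0) by title number for 5 members and for Msr1, Cpt1a and Fabp4, with EcTM as circles, non-EcTM as squares and a line at the mean of the 2 libraries. Abca1 is lowest and Lpl highest in E591 and N591, and Fabp4 is at 74.8 and 213 CPM there.

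The other genes of the pathways were read from 8 lists, 117 genes in all, of which 64 could be tested. None passed in either direction between EcTM and non-EcTM in edgeR, and the median log2 fold change of the 64 was -0.01. At an unadjusted p under 0.05 there were 1 higher gene, Sorl1 itself, and 2 lower, Fdft1 and Dgat1, of 64, where 2.77% of all tested genes were higher and 2.63% lower at that level. In DESeq2 Sorl1 was the only called gene of the lists. Between title numbers 5 of the 64 were called (7.81%, against 3.04% of all tested genes), namely Abca1, Lpl, Msr1, Fabp4 and Cpt1a, and each of these calls was lost without the pair E591.

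In the list of LXR and sterol efflux genes, 7 of 13 were tested, and their median log2 fold change was 0.01. Besides the members it holds Arl4c, an LXR target that acts in cholesterol transport, at 280 ± 45.0 CPM in EcTM (SD, n = 4) and 238 ± 43.6 in non-EcTM (SD, n = 4), with an adjusted p of 0.921 in edgeR. Rxra, the partner of LXR on DNA, had a log2 fold change of 1.03 ± 0.56 (SE), which came mainly from 22.9 CPM in E591 and 40.2 in E592 (adjusted p = 0.931 in edgeR).

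The list of SREBP2 processing and cholesterol synthesis had 16 of 29 genes tested and a median of -0.12, with 11 of the 16 below 0. Fdft1, squalene synthase, was at 6.19, 15.2, 22.4 and 21.3 CPM in E591, E592, E604 and E606 and at 33.4, 27.0, 32.3 and 25.1 in the non-EcTM libraries. Its groups did not overlap, as in 2.7% of tested genes, but its adjusted p in edgeR was 0.874 and it has 2 curated transcripts. The fitted differences of these synthesis genes ran in both directions.

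Among the lipoprotein and scavenger receptors, 7 of 15 were tested, with a median of 0.01. Cd36, the fatty acid and oxidised lipoprotein receptor, was at 0 in all 8 libraries and has several curated transcripts. Msr1, scavenger receptor A, was at 75.5 ± 35.4 CPM in EcTM (SD, n = 4) and 75.9 ± 22.9 in non-EcTM (SD, n = 4). It ran from 35.7 and 58.8 CPM in E591 and N591 to 120 and 110 in E606 and N606, a range of 1.28 on the log2 scale between title numbers (adjusted p = 0.0424 in edgeR). That call was lost without the pair E591 (range 0.83, adjusted p = 0.150 in edgeR), without E592 (1.28, adjusted p = 0.0644) and without E606 (0.71, adjusted p = 0.637). The cleaved chemokine and scavenger receptor Cxcl16 and the lysosomal receptor Scarb2 had log2 fold changes of 0.12 ± 0.08 and 0.13 ± 0.09 (SE).

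The list that Sorl1 belongs to, VPS10 sorting receptors and retromer, had 7 of 12 genes tested and a median of -0.01. Gga1, an adaptor that binds the tails of such receptors at the Golgi, was at 153 ± 15.9 CPM in EcTM and 140 ± 16.4 in non-EcTM (SD, n = 4 each), with an adjusted p of 0.968 in edgeR. Sort1, another VPS10 receptor, had 1 count in all and could not be followed.

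The remaining lists held no passing gene either. Of 13 genes of lipoprotein lipase handling 4 were tested, with a median of 0.13. Angptl4, a secreted inhibitor of the lipase, had 74 counts in all and a log2 fold change of 2.2 ± 1.2 (SE, adjusted p = 0.931 in edgeR). Of 7 lipoprotein remodelling genes 2 were tested. Lysosomal and intracellular cholesterol transport had 10 of 13 tested and a median of 0.02, with Npc2, which hands cholesterol out of the lysosome, at 0.14 ± 0.11 (SE) on the log2 scale.

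Fatty acid uptake and lipid droplets had 12 of 20 genes tested and a median of -0.05. Plin2, the coat protein of lipid droplets, was higher in EcTM in 4 of 4 pairs, as were 7.24% of all tested genes. Its log2 fold change was 0.19 ± 0.10 (SE), with an adjusted p of 0.931 in edgeR. Dgat1, which makes triglyceride, was lower in EcTM in 4 of 4 pairs, as were 6.89% of all tested genes. It was at 14.2 ± 9.77 CPM in EcTM against 26.6 ± 6.82 in non-EcTM (SD, n = 4 each), with an adjusted p of 0.835 in edgeR. Cpt1a, which brings fatty acids into mitochondria, ran with the pairs, at 436 and 459 CPM in E591 and N591 and 229 to 353 CPM in the other 6 libraries. Its range between title numbers was 0.96 on the log2 scale, and 0.55 without the pair E591 (adjusted p = 0.0648 in edgeR). Fabp4, a fatty acid carrier of fat cells, capillary endothelium and macrophages, was at 74.8 CPM in E591 and 213 in N591, against 10.1 to 26.9 in the other 6. Its range was 3.35 on the log2 scale, and 0.75 without the pair E591 (adjusted p = 0.863 in edgeR). E591 and N591 are also the 2 libraries with the highest endothelial and fibroblast sums. The part of other cells in the level of Fabp4 was not tested.

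**Figure D5:**
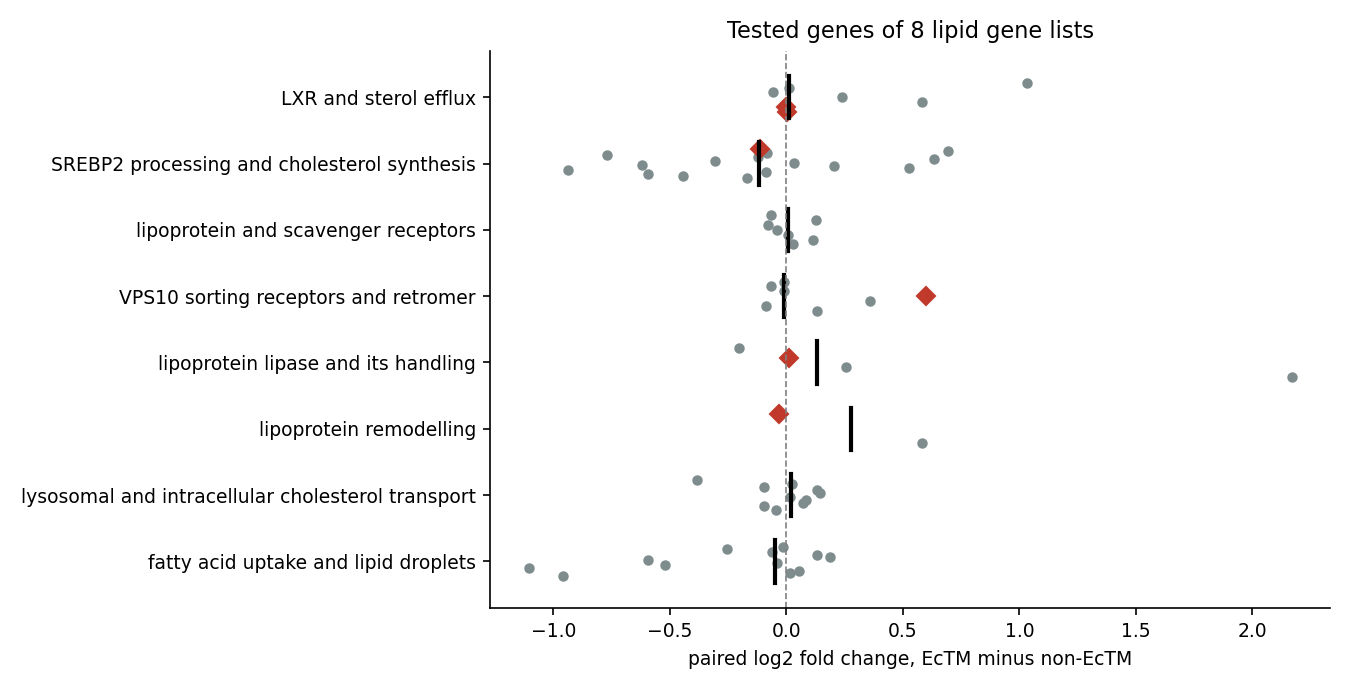
Paired log2 fold change, EcTM minus non-EcTM (horizontal axis), of the tested genes of 8 lipid lists. Red diamonds are members, grey points are other genes (none past the threshold in edgeR), and black bars are list medians, which run from -0.12 to 0.28.

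Genes with the most similar pattern to each tested member were looked up over the 8 libraries, among 3806 genes that averaged at least 5 in log2 CPM. The highest Pearson correlations for Abca1 were with Man2a2 (0.97), Vamp3 (0.96) and Slc9a9 (0.93), and for Lpl with Emilin1 (0.97), Fbxw5 (0.96) and Fzd7 (0.93). For Pltp they were Usp42 (0.97), Cebpd (0.95) and Jun (0.93), for Sorl1 Ankrd44, Man2b2 and Luc7l3 (0.94 each), for Srebf2 Gsap (0.95), Chd2 (0.93) and Erf (0.92), and for Abcg1 Maml3 (0.94), Hsd17b12 (0.92) and Uggt1 (0.90). The correlation of Pltp with Jun fell to 0.79 without the pair E591. With 8 libraries that fall into pairs and so many genes searched, all these values are descriptions. No pathway gene was among the 18 named.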

How the data were processed

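RNA was extracted with a micro column kit and made into libraries with a stranded total-RNA kit for picogram inputs, per the labels' protocols. The submitters' processing notes name bcl2fastq 2.17, TopHat, DESeq2, R 3.2 and mm10. How reads were assigned to genes (program, annotation, strand) is not given in the sources used here. Raw counts for each gene and library were deposited by the authors and used here, and their deposited log2 values were not.

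Genes passing edgeR's filterByExpr (7667, holding 99.3% of counts) were fitted with edgeR 4.0.16 (quasi-likelihood F-test, TMM) in R 4.3.3, with group and title number as terms. P-values were adjusted by Benjamini-Hochberg over all tested genes at a threshold of 0.05. CPM use TMM-scaled library sizes. DESeq2 1.42.0 and limma-voom (limma 3.58.1) were run beside it. The number was a block because the comparison was set to be paired by number. In these same data, same-numbered libraries also deviated together after removal of group means (Pearson r of 0.12 to 0.19 across genes in 4 pairs, -0.13 to 0.05 in other pairs). The labels do not state what the number is. Entrez numbers matched 24447 genes to RefSeq annotation on GRCm38.p6, which is mm10. Counts were simulated with 200 of 7667 genes changed between EcTM and non-EcTM. The paired edgeR fit found 13% of these at a log2 change of 0.5, 46.5% at 1 and 81.5% at 2. The simulated counts held no differences between title numbers, so they do not test the pairing.

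All 8 members are reported. Other genes came from 8 lipid lists and 7 marker lists, by a rule that named up to 4 genes with the smallest p in a lipid list, up to 3 by p and 3 by level in a marker list, and the 3 genes closest to each member. Genes at 0 or near it are named for their place in the pathway, and Cpt1a as a list gene called between title numbers. Members and lists were chosen with earlier results of these data known. Alternatives were no block, other scalings, other filters, genes with 1 curated transcript, and leaving out each number. Intervals (95%) and floors cover counting error and spread between these libraries only.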

Additional observations from a re-analysis of the deposited data

Results flagged for a closer look

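Lowest or highest values that stood far from the other 3 of their group, by Dixon's ratio of the gap to the range on log2 CPM at its 95% limit, were sought in 42 groups. Chance gives about 1 in 20, and 4 were found, all in N591. Lpl was at 234 CPM there against 111 to 123 in the other non-EcTM libraries (ratio 0.855). Srebf2 was at 196 CPM against 220.8 to 221.1 (ratio 0.988), a small gap beside 3 nearly equal values. Fabp4 was at 213 CPM against 16.6 to 21.9 (ratio 0.893). Kdr, the endothelial receptor for VEGF, was at 194 CPM against 32.9 to 41.4 (ratio 0.871). N591 also had the highest endothelial and fibroblast marker sums of the 8 libraries. The part of these in the other 3 values was not tested.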

How the results depend on the processing

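The count of genes called between EcTM and non-EcTM, 1 in the paired edgeR fit, was 17 with DESeq2, 19 with limma-voom, 10 with no filter on low counts and 0 among genes with 1 curated transcript (280 at an unadjusted p under 0.05 in edgeR). With no replicate block edgeR called 0 genes (257 at an unadjusted p under 0.05, and DESeq2 17 with the block), and again 0 when N591 was also left out (210 at an unadjusted p). Leaving out each pair gave 1 to 2 calls in edgeR and 2, 6, 20 and 4 in DESeq2 for E591, E592, E604 and E606. The DESeq2 fits without a pair and the unpaired fit without N591 were chosen after seeing the data. Between title numbers the count, 233, was 439 with DESeq2, 350 with no filter and 146 to 179 with a pair left out. Apart from DESeq2 for Sorl1, no alternative run called a member between EcTM and non-EcTM. Sorl1 was higher in EcTM and Srebf2 lower in each fit that gave a value. Sorl1 has no value among genes with 1 curated transcript.

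Differences near 0 changed sign, none of them past the threshold, and the cause was not tested. With a pair left out, Abca1 ran from -0.042 to 0.048, Abcg1 from -0.12 to 0.10, Lpl from -0.20 to 0.16, Pltp from -0.083 to 0.041 and Msr1 from -0.19 to 0.11 on the log2 scale. Abca1 also gave -0.00057 with upper-quartile scaling, -0.00146 with no filter, -0.00092 with a filter of 10 CPM in 4 libraries and -0.00155 among genes with 1 curated transcript. Abcg1 gave 0.0079 with no replicate block, 0.0032 with DESeq2, 0.019 with limma-voom and 0.00097 with DESeq2 size factors. Msr1 gave 0.00023 with limma-voom. Unpaired and without N591, Abca1 gave -0.044, Pltp 0.051 and Fabp4 0.76. Lpl kept its sign in that fit but moved to 0.33, from 0.01 in the main fit.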
